A study of Drosophila melanogaster with 12 samples.

Results

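This account covers 16 Drosophila genes that carry only a computed gene number (a CG symbol) and whose transcripts were less abundant in the G2 fraction than in the G1 fraction of both wing disc cells and S2 cells. The members were selected on measured values. Each gene had to have 1 platform symbol made of CG and digits, a mean log2 intensity of at least 6 in wing disc G1 and in S2 G1, and a mean G2 minus mean G1 of -0.5 or lower in both cell types. A gene with several probe sets was followed through the one with the highest mean over the 12 arrays. Of 11981 genes with a probe set of their own, 5209 had a CG symbol, and 1516 of these reached the level in both G1 groups. The thresholds were met by 17 of them, and 1 (CG13690) was left out by name, which left 16. The other 3 genes left out by name (CG8620, CG7142 and CG42369) did not reach the level of 6 in disc G1.

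A CG symbol is a number given to a protein-coding gene in the annotation of the fly genome, and it stays in use until the gene receives a name from a phenotype, a biochemical activity or a relative in another species. In dividing cells, transcripts of DNA replication enzymes, nucleotide synthesis and origin licensing are known to build up around the passage from G1 to S phase, in large part through E2F transcription factors, and to decline later in the cycle. In the larval wing disc, a sac of epithelium from which the wing blade, hinge and notum develop, cells at this stage spend much of the cycle in G2. The gene table used here listed each of the 16 genes as protein-coding and still under its CG symbol. No function was taken from it, so the symbol alone is no statement on what is known of a gene. CG7458 alone had a synonym there in the form of a gene name, Slc22a15. That name is used in mammals for a member of a family of organic ion transporters. Synonyms of other members there were identifiers, such as CT24026 for CG7997.

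RNA was hybridised to Affymetrix Drosophila arrays from 4 groups of 3 arrays, numbered 2, 3 and 4 for the disc and 4, 5 and 6 for S2. Wing disc G1 and wing disc G2 were cells with 2C and 4C DNA content from OreR larvae, a wild-type strain, raised at 25 °C and dissected as wandering larvae of instar 3. S2 G1 and S2 G2 were cells with 2C and 4C DNA content of the S2 line, a line grown in culture, once derived from late embryos, that resembles blood cells, kept for fewer than 30 passages. No group carried a transgene or treatment in the labels, and the 4C gate also takes in cells in mitosis, so G2 here stands for G2 and M. Labelled RNA was made from 100 ng of RNA per sample. Nothing in the labels ties an array to its own dissection or flask. A p-value therefore sets a difference against the spread of these samples, and that spread may be technical. A lower value in a G2 fraction is a difference between sorted populations, and fewer cells of a type and less RNA per cell cannot be told apart. Values below are log2 intensities, on which 1 unit is 2-fold, and errors of a change are standard errors (SE) of a linear model at n = 3 arrays per group. A level of one gene is not compared with that of another, since probe sets differ in brightness. Median log2 intensity per array was 4.18 to 4.37, array pairs within a group correlated at 0.994 to 0.997 over all probe sets, and precision is limited by having 3 arrays a group.

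The G2 minus G1 changes chose the members, so they are described here with no test. In the disc they ran from -2.20 to -0.61 with a median of -1.21, and in S2 from -1.33 to -0.52 with a median of -0.74. Over the 5021 genes that reached the level in both G1 groups, the medians were 0.05 in the disc and 0.04 in S2. The difference was larger in the disc for 14 of the 16 genes and larger in S2 for CG3085 and CG10337. Every disc G2 array lay below every disc G1 array for 16 of 16 genes, a pattern found in 12.9% of the 8580 probe sets tested. In S2 this held for 15 of 16, against 10.7% of probe sets, and the exception was CG32625. Both counts follow from the way the genes were chosen. All 16 genes passed the filter on dim probe sets, which kept those that reached 5 on 3 or more arrays.

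**Figure D1:**
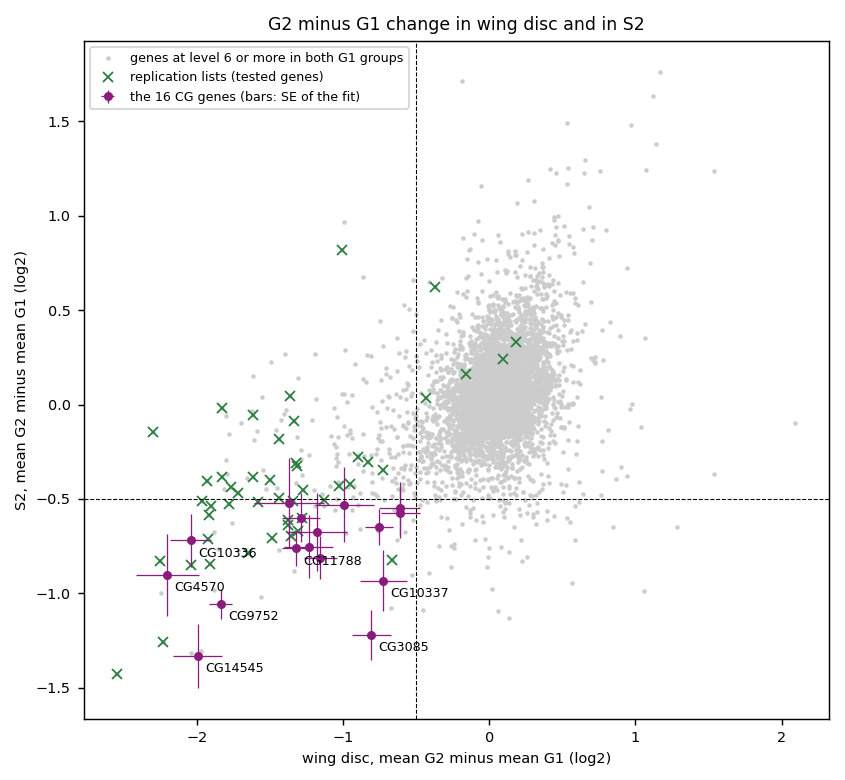
Each point is a gene, with its mean G2 minus mean G1 change (log2) in the wing disc on the x axis and in S2 on the y axis; dashed lines mark -0.5, grey points are the 5021 genes with a level of at least 6 in both G1 groups, crosses are tested genes of the replication lists, and filled circles with SE bars are the 16 CG genes (n = 3 arrays per group). The 16 genes lie in the lower left corner by choice, with the CG4570 point at -2.20 in the disc and the CG14545 point at -1.33 in S2. The disc values of both are limited by a low G2 signal.

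The threshold sits in a continuous range of values. Just inside it were CG32625 (S2 change -0.52), CG7997 (-0.53) and CG7458 (-0.55). Just outside were CG4951 (-0.47 in S2 with -0.78 in the disc), CG5359 (-0.45 with -1.20) and CG11164 (-0.45 with -1.81). When 1 array was left out and the rule applied again, CG14803, CG32625 and CG7458 dropped out without S2 G2 array 4, CG7458 and CG7997 without S2 G1 array 5, and CG3191 and CG32625 without S2 G1 array 6. CG32625 dropped out without S2 G2 array 5, CG7997 without S2 G2 array 6 and CG7458 without disc G2 array 4, while the other 11 members stayed in each time. CG13690, left out by name, changed by -2.25 in the disc and -0.999 in S2.

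Among the 8 genes with the lowest sum of both changes, CG14545 stood first. It was measured in disc G1 at 5.89, 6.34 and 6.24 and in disc G2 at 3.82, 4.09 and 4.58, a change of -1.99 ± 0.17. The S2 values were 11.73, 11.65 and 11.76 in G1 and 10.41, 10.35 and 10.39 in G2, a change of -1.33 ± 0.17, or 2.52-fold. The arrays of S2 lay close together and far above all disc arrays, and the disc G2 values were under 5, near background, so the size of the disc change is limited. CG4570 had a disc change of -2.20 ± 0.22, with 6.94, 7.68 and 6.99 in disc G1 and 4.54, 5.38 and 5.08 in disc G2. In S2 it went from 9.41, 9.46 and 9.31 to 8.54, 8.37 and 8.56 (-0.90 ± 0.22). Disc array 3 was the highest of its group in both fractions, and the disc G2 mean of CG4570 was 5.00, at the limit of the filter, so the size of its disc change is limited too and the order of both genes in the disc is not settled.

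CG9752 had values well above background in every group. Its disc G1 arrays read 10.92, 11.14 and 11.06 and its disc G2 arrays 9.24, 9.25 and 9.13 (-1.84 ± 0.08, 3.58-fold). S2 G1 gave 10.49, 10.54 and 10.40 and S2 G2 9.46, 9.40 and 9.40 (-1.06 ± 0.08, 2.08-fold). In both cell types the gap between the fractions was several times the spread of the arrays within a fraction. CG10336 read 9.70, 9.66 and 9.57 in disc G1 and 7.59, 7.67 and 7.54 in disc G2 (-2.04 ± 0.14, 4.12-fold). Its S2 values were 8.95, 8.99 and 9.40 in G1 and 8.16, 8.36 and 8.66 in G2 (-0.72 ± 0.14), and S2 array 6 was the highest in both fractions. The S2 groups were closer together than the disc groups, with the highest G2 array at 8.66 and the lowest G1 array at 8.95.

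CG11788 was at 9.12, 9.25 and 9.25 in disc G1 and at 7.80, 7.94 and 7.92 in disc G2, a change of -1.32 ± 0.09. In S2 the arrays gave 8.36, 8.42 and 8.64 in G1 and 7.60, 7.78 and 7.76 in G2, a change of -0.76 ± 0.09. The same-numbered disc arrays of this gene differed by nearly the same amount in each pair. CG5757 went from 10.87, 11.11 and 10.997 to 9.67, 9.97 and 9.86 in the disc (-1.16 ± 0.11). Its S2 arrays read 10.17, 9.97 and 10.00 in G1 and 9.28, 9.06 and 9.36 in G2 (-0.81 ± 0.11). No array of one fraction reached into the range of the other in either cell type.

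CG3085 differed more between the S2 fractions than between the disc fractions. The S2 arrays gave 6.51, 6.77 and 6.82 in G1 and 5.36, 5.45 and 5.63 in G2, a change of -1.22 ± 0.13 or 2.33-fold. The disc arrays gave 7.08, 7.45 and 7.28 in G1 and 6.24, 6.64 and 6.51 in G2 (-0.81 ± 0.13). Disc array 3 was highest and array 2 lowest in both disc fractions. CG31955 was at 6.22, 6.43 and 5.93 in disc G1 and 5.12, 4.59 and 5.17 in disc G2 (-1.23 ± 0.17), with the disc G2 mean of 4.96 under 5. Its S2 values were 10.95, 10.78 and 10.84 in G1 and 10.32, 10.02 and 9.96 in G2 (-0.75 ± 0.17). As for CG14545, S2 cells carried far more of this transcript than disc cells in both fractions, and the size of the disc change is limited by the low G2 level.

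**Figure D2:**
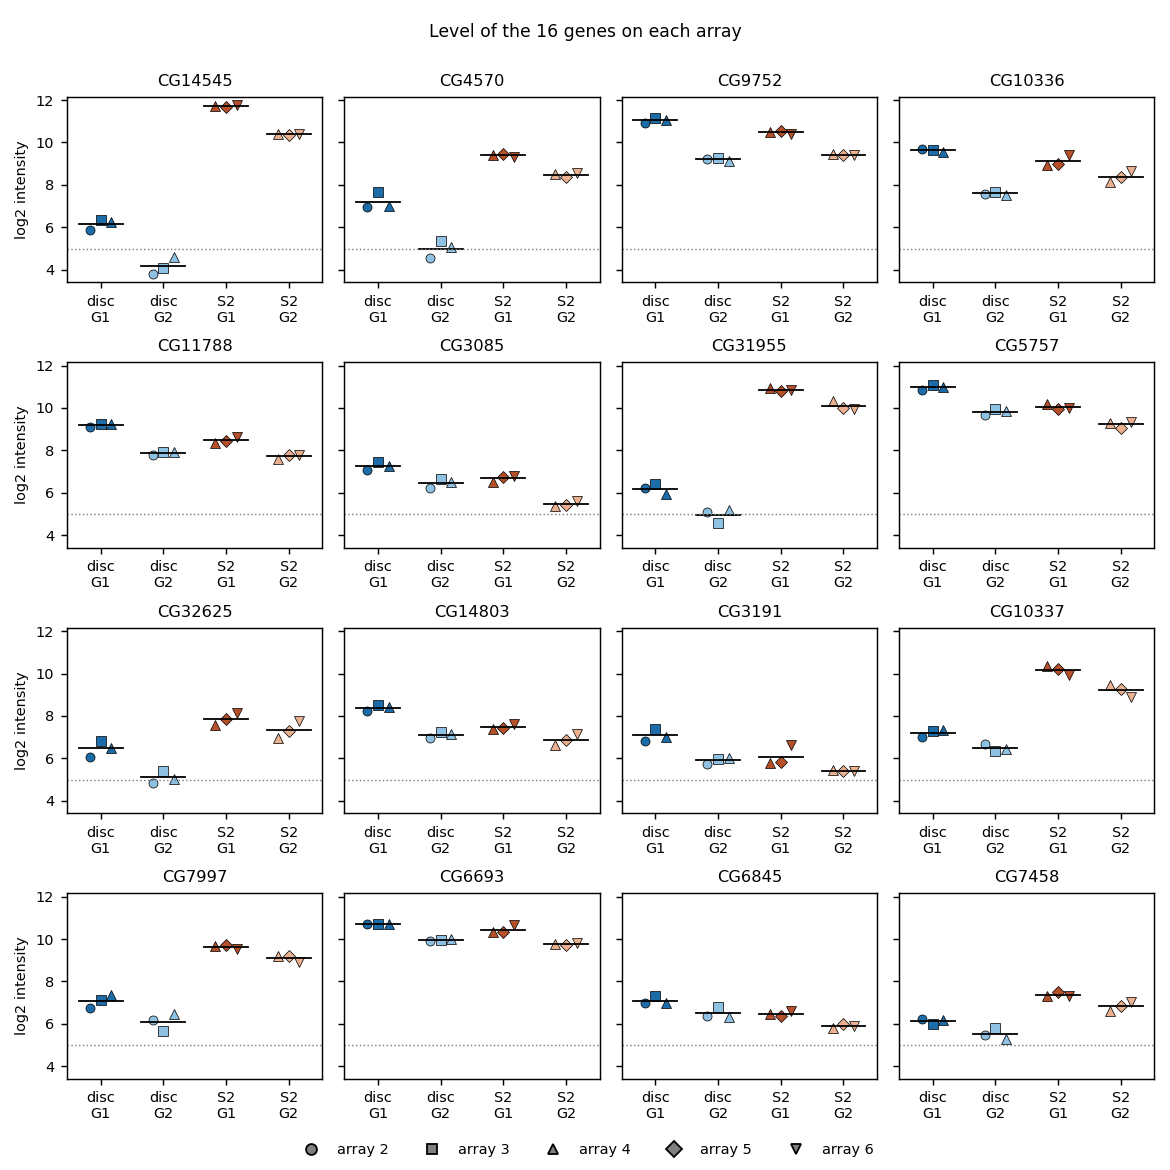
Each panel shows 1 gene, with the log2 intensity on the y axis and the 4 groups on the x axis; points are single arrays, with the shape giving the array number, bars are group means (n = 3), and the dotted line marks 5. G2 points lie below G1 points of the same cell type in every panel except that of CG32625 in S2, where G2 array 6 (7.76) is above G1 array 4 (7.57).

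The other 8 genes had smaller total changes. CG32625 read 6.09, 6.82 and 6.49 in disc G1 and 4.86, 5.42 and 5.01 in disc G2 (-1.37 ± 0.24). Its disc G2 mean was 5.10, close to background, so the size of this disc change may be limited. Its S2 groups overlapped, with 7.57, 7.85 and 8.16 in G1 and 6.97, 7.29 and 7.76 in G2 (-0.52 ± 0.24). Array 4 was lowest and array 6 highest in both S2 fractions, and each same-numbered pair was lower in G2. CG14803 had the same order of S2 arrays, 7.39, 7.45 and 7.60 in G1 and 6.64, 6.85 and 7.14 in G2 (-0.60 ± 0.13), with no overlap. In the disc it went from 8.25, 8.51 and 8.40 to 6.94, 7.23 and 7.14 (-1.29 ± 0.13). The disc groups of CG14803 were more than 1 unit apart at their closest arrays.

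CG3191 read 6.83, 7.40 and 7.02 in disc G1 and 5.73, 5.95 and 6.04 in disc G2 (-1.18 ± 0.21). In S2 G1 the arrays gave 5.79, 5.84 and 6.63, and in S2 G2 5.46, 5.39 and 5.38 (-0.67 ± 0.21). S2 G1 array 6 stood apart from the other two, and without it CG3191 no longer met the rule. CG10337 went from 6.99, 7.31 and 7.32 to 6.66, 6.34 and 6.44 in the disc (-0.72 ± 0.16). The S2 arrays read 10.35, 10.20 and 9.91 in G1 and 9.45, 9.29 and 8.92 in G2 (-0.93 ± 0.16). Here array 6 was the lowest of each S2 fraction, the reverse of CG32625 and CG14803.

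CG7997 had a wide spread in disc G2, at 6.74, 7.14 and 7.38 in G1 and 6.19, 5.64 and 6.46 in G2 (-0.99 ± 0.20). Its S2 arrays gave 9.65, 9.72 and 9.52 in G1 and 9.18, 9.21 and 8.91 in G2 (-0.53 ± 0.20). The fractions did not overlap in either cell type. CG6693 had tight disc values, 10.73, 10.72 and 10.70 in G1 and 9.89, 9.98 and 10.01 in G2 (-0.75 ± 0.10). In S2 it was at 10.31, 10.32 and 10.66 in G1 and 9.79, 9.73 and 9.83 in G2 (-0.65 ± 0.10). Among these 16 genes the disc G1 spread of CG6693 was the smallest (SD 0.01).

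The smallest total changes were those of CG6845 and CG7458. CG6845 went from 7.01, 7.30 and 6.99 to 6.38, 6.78 and 6.32 in the disc (-0.61 ± 0.13). Its S2 values were 6.47, 6.35 and 6.59 in G1 and 5.81, 5.98 and 5.91 in G2 (-0.57 ± 0.13). CG7458, the gene with the transporter synonym, was measured in the disc from 6.24, 6.00 and 6.20 to 5.49, 5.81 and 5.31 (-0.61 ± 0.14) and in S2 from 7.30, 7.50 and 7.34 to 6.62, 6.84 and 7.03 (-0.55 ± 0.14). Its disc G1 mean of 6.15 and the S2 G1 mean of CG3191 (6.08) lay close to the minimum level.

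Within the disc groups, arrays 2 and 3 each lay on one side of the group mean for 12 or more of the 16 genes, while in S2 the split was closer to even on most arrays. The deviation of an array from its group mean was not used in the choice of the genes. Disc G1 array 3 was above its group mean for 15 of 16 genes (median deviation 0.12, against 0.04 over all tested probe sets), and disc G2 array 3 for 12 of 16. Disc array 2 was below the mean for 12 of 16 genes in G1 and for 12 of 16 in G2. Of 48 tested replication genes, 31 and 32 were above the mean on disc array 3 in G1 and G2. In S2 G1 the genes below and above the mean numbered 9 and 7 on array 4, 10 and 6 on array 5, and 7 and 9 on array 6. In S2 G2 array 5 was below the mean for 11 of 16. Array 6 of S2 G2 was above the mean for 11 of the 16 genes and for 41 of the 48 replication genes, and array 4 was below it for 7 of the 16 and for 40 of the 48. Same-numbered G1 and G2 arrays deviated together over all probe sets. All 16 genes were lower in G2 in each of the 3 same-numbered pairs in the disc and in S2, which the choice of the genes largely fixes, and fully so where the fractions do not overlap. The median change of a pair ran from -1.36 to -1.06 in the disc and from -0.79 to -0.65 in S2. Single genes spread more, such as CG31955 from -1.84 to -0.76 and CG7458 from -0.89 to -0.20 in the disc, and CG3191 from -1.24 to -0.33 in S2.

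**Figure D3:**
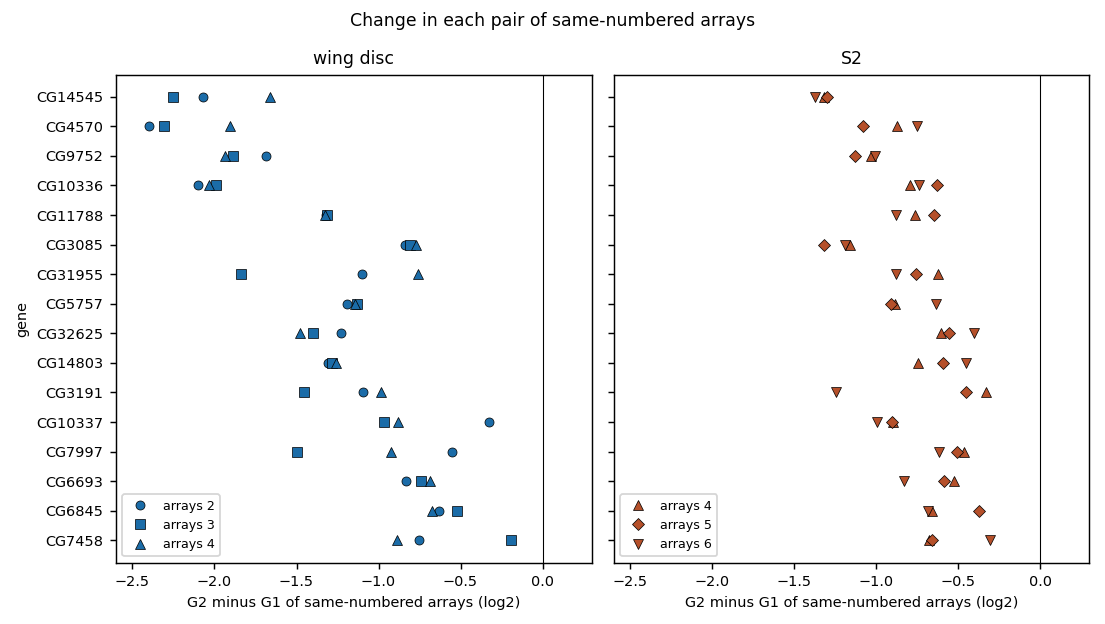
G2 minus G1 (log2) of same-numbered arrays on the x axis for each of the 16 genes, disc on the left and S2 on the right, with 3 pairs per gene and the shape of the symbol giving the array number. All points lie below 0, as the choice of the genes largely fixes, and pairs differ most for CG31955, CG7997 and CG7458 in the disc and for CG3191 in S2.

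The difference between disc and S2 cells was not itself a criterion, and it was tested. It is not free of the choice, since the rule used the same G1 and G2 means, and the minimum level of 6 in both G1 groups removes genes that are low in either cell type. Averaged over both phases, 8 of the 16 genes were higher in the disc and 7 were lower, and CG10336 did not pass (-0.13 ± 0.10, adjusted p = 0.2414; limma, Benjamini-Hochberg over 8580 probe sets). Of all probe sets 41.0% were higher and 42.7% lower in the disc, so shares of this size are near the background. The median size of the difference, without its sign, was 0.78 in the 16 genes, 0.70 over all probe sets and 0.59 over the genes at the same minimum level. Of the 7 genes lower in the disc, the 5 with a disc G2 mean of at least 5 were 2.40 to 7.18 times lower, while the 8 higher in the disc were 1.13 to 1.72 times higher. Among the 5, CG4570 (5.00) and CG32625 (5.10) barely reached that mean, so their folds may be limited by it.

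CG14545 and CG31955 had measured differences of -5.89 ± 0.12, adjusted p = 4.1e-13 and -4.90 ± 0.12, adjusted p = 1.8e-12. Their disc G2 means lay under 5, near background, so the sizes are limited by the low disc level and no fold is given. The others lower in the disc were CG10337 (-2.84 ± 0.11, adjusted p = 1.9e-10), CG4570 (-2.84 ± 0.15, adjusted p = 3.1e-09), CG7997 (-2.77 ± 0.14, adjusted p = 2.0e-09), CG32625 (-1.82 ± 0.17, adjusted p = 6.4e-07) and CG7458 (-1.26 ± 0.10, adjusted p = 1.1e-07). For each of these 7 genes, every S2 array lay above every disc array of the same phase. On the other side were CG3085 (0.78 ± 0.10, adjusted p = 8.0e-06), CG5757 (0.77 ± 0.08, adjusted p = 1.5e-06), CG3191 (0.75 ± 0.15, adjusted p = 4.5e-04) and CG6845 (0.61 ± 0.09, adjusted p = 5.6e-05). CG14803 (0.57 ± 0.09), CG11788 (0.45 ± 0.07), CG6693 (0.23 ± 0.07) and CG9752 (0.18 ± 0.06) completed the genes higher in the disc, with adjusted p of 1.0e-04, 4.4e-05, 0.0077 and 0.013. After subtraction of array medians, which shifts the median of all probe sets by -0.11, CG6693 (adjusted p = 0.154) and CG9752 (adjusted p = 0.347) no longer passed and CG10336 did (-0.24, adjusted p = 0.0491).

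**Figure D4:**
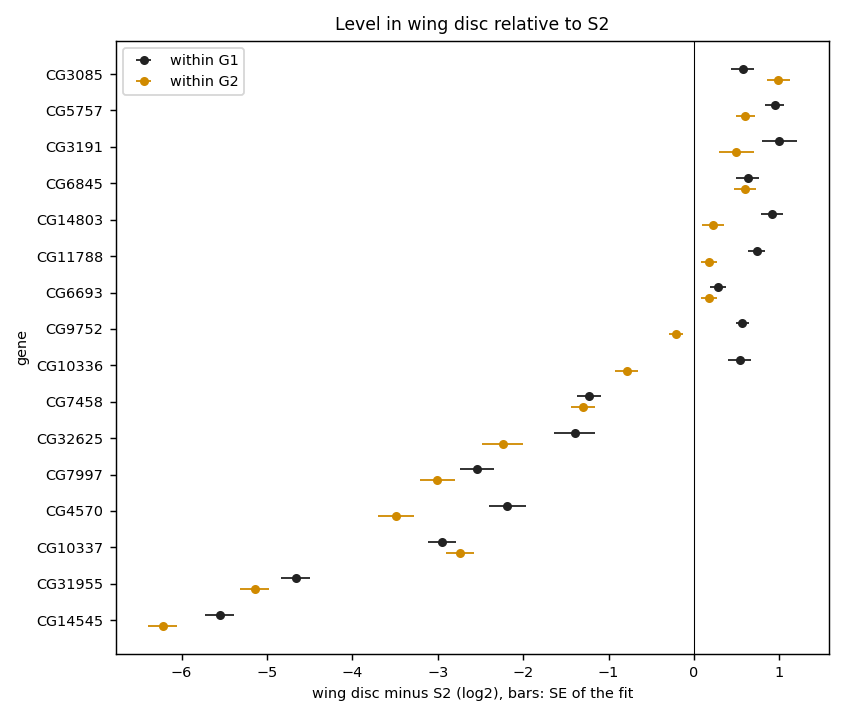
Wing disc minus S2 (log2) on the x axis for each of the 16 genes, within G1 (black) and within G2 (orange), with SE bars of the fit (n = 3 arrays per group). CG14545 and CG31955 lie farthest below 0 of the 16 genes in both phases, and CG9752 and CG10336 are on opposite sides of 0 in G1 and G2.

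Within G1, 9 genes were higher in the disc and 7 lower (38.0% and 39.0% of all probe sets). Within G2, 4 were higher (CG3085, CG5757, CG3191 and CG6845), 9 lower and 3 did not pass (36.2% and 40.1% of all probe sets). CG9752 was 11.04 ± 0.11 in disc G1 and 10.48 ± 0.07 in S2 G1 (SD, n = 3), higher in the disc by 0.57 ± 0.08 (adjusted p = 4.4e-05, limma), but lower within G2, with a difference of -0.21 ± 0.08 (adjusted p = 0.0309, limma). CG10336 likewise was higher in disc G1 by 0.53 ± 0.14 (adjusted p = 0.0041) and lower in disc G2, at -0.79 ± 0.14 (adjusted p = 2.4e-04). The p-values within G1 and within G2 are no test of a change of side, nor is the shift of the counts between G1 and G2. The gap between the G1 and G2 differences of a gene equals the gap between its disc and S2 phase changes. The choice of the genes used those changes, so the gap is given with no test. It was -0.78 ± 0.12 for CG9752, -1.32 ± 0.20 for CG10336, -1.30 ± 0.30 for CG4570 and -0.85 ± 0.34 for CG32625, the 4 genes with the lowest values, and 0.42 ± 0.19 for CG3085, 0.21 ± 0.23 for CG10337, -0.03 ± 0.19 for CG6845 and -0.06 ± 0.20 for CG7458, the 4 with the highest.

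Some calls on the smaller differences lay close to the threshold and changed with the setting or with the array left out. Leaving out an array of the other phase alters the error of a difference, not the difference itself. Within G2, the 3 genes that did not pass were CG11788 (0.17, adjusted p = 0.1129), CG14803 (0.22, adjusted p = 0.1361) and CG6693 (0.18, adjusted p = 0.1128). With loess all 3 passed (adjusted p = 0.0147, 0.0431 and 0.0187 in that order). CG14803 also passed without S2 G2 array 6 (adjusted p = 0.0227) and CG6693 without S2 G1 array 6 (adjusted p = 0.0236). CG3191 was higher in disc G2 by 0.50 (adjusted p = 0.0456), and this call was lost with replicate number as a random block (adjusted p = 0.0568) and without disc G1 array 4 (0.0562), disc G2 array 3 (0.0968) or 4 (0.127), or S2 G2 array 4 (0.0728), 5 (0.0933) or 6 (0.0948). The call of CG9752 within G2 was lost without disc G2 array 4 (adjusted p = 0.117) or S2 G2 array 4 (0.0887), 5 (0.0592) or 6 (0.0514). Within G1, CG6693 no longer passed without S2 G1 array 4 (adjusted p = 0.0755) or 5 (0.07) or with array medians (0.136). Within G2, CG3191 did not pass with array medians (0.131), loess (0.0508) or no filter (0.0593), nor CG9752 with loess (0.19) or no filter (0.0774).

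The same thresholds applied to genes with a name of their own gave 47 genes of 3505 at the level (1.34%), against 17 of 1516 CG genes (1.12%). Their median changes were -1.38 in the disc and -0.68 in S2, and 41 of the 47 had the larger difference in the disc. Of the 47, 21 were in 2 lists of replication genes written down for this work, and 26 were not. The lists were chosen with earlier results of these data known and are not complete. The 26 include PolD2, PolE4 and cutlet, so they are not all outside replication. Both lists describe the programme that is known to peak at the start of S phase. Of 34 tested fork genes, nucleotide synthesis included, 32 fell and 2 did not pass (Psf2 and RfC3) in disc G2 (median -1.38), beside 5.31% of probe sets lower and 5.20% higher and a median of 0.05 over all probe sets. In S2 G2, 21 fell, 1 rose and 12 did not pass (median -0.51), beside 3.52% lower and 6.13% higher and a median of 0.02. With replicate number as a block, 639 probe sets were lower and 987 higher in disc G2, against 456 and 446 without it, and 638 and 939 in S2 G2, against 302 and 526. Loess between arrays turned the S2 split to 422 lower and 389 higher. Of 14 licensing genes, 12 fell in disc G2 and 2 did not pass (median -1.56), while 4 fell, 1 rose and 9 missed the threshold in S2 G2 (median -0.39). The S2 count of licensing genes was 1 without S2 G2 array 4, 2 without S2 G1 array 5, and 6 with replicate number as a block.

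The range of both lists together takes in the values of the 16, whose upper end was set by the rule. In S2 the licensing list alone reached only -0.52 (dpa), and all members but CG32625 lay below that. Only dnk and Ts of the fork list lay below -0.85 in S2, as did CG14545, CG3085, CG9752, CG10337 and CG4570 among the members. In the fork list, dnk, which encodes a deoxyribonucleoside kinase, was lowest in the disc (-2.54 ± 0.09) and in S2 (-1.43 ± 0.09), beside Prim1, a primase subunit, in the disc (-2.25 ± 0.14), Ts, thymidylate synthase, in both (-2.23 ± 0.09 and -1.26 ± 0.09), and Ctf4, a replisome protein, in S2 (-0.85 ± 0.13). At its other end were Psf2, a GINS subunit (0.09 and 0.24), RfC3, a clamp loader subunit (-0.37 and 0.63 ± 0.16), Psf3 in the disc (-0.43 ± 0.11) and Caf1-p105 (the gene table's synonym for a chromatin assembly factor subunit) in S2 (0.05). In the licensing list, Orc1 (-2.30 ± 0.16), Mcm10 (-1.96 ± 0.14) and dup, the Cdt1 protein (-1.82 ± 0.17), were lowest in the disc, and dpa, an MCM helicase subunit (-0.52, adjusted p = 0.0537), Orc5 (-0.51 ± 0.10) and Mcm10 (-0.51 ± 0.14) in S2. The highest were chif, the partner of the Cdc7 kinase (0.18 and 0.33), Cdc7 itself (-0.16 and 0.16) and Cdc6, which loads the helicase (-1.01 ± 0.18 in the disc and 0.82 ± 0.18 in S2). Psf2, chif and Cdc7 did not pass in either cell type, nor did RfC3 in the disc or Caf1-p105 in S2, and a change without its SE here is one that did not pass. The disc change differed from the S2 change in 5.10% of all probe sets.

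The genes beside the 16 on the chromosomes did not pass the test in most cases. The gene before and the gene after each member, in the order of the protein-coding genes of the Release 6 table, gave 32 neighbours. None of them was a member, and 27 were tested. In disc G2, 2 of the 27 fell, the other 25 missed the threshold, and the median was 0.09, beside 5.31% of all probe sets lower and 5.20% higher. In S2 G2, 2 fell, 1 rose and 24 missed the threshold, and the median was 0.03, beside 3.52% lower and 6.13% higher. Counts this small are near those shares and show nothing particular to the neighbours. With replicate number as a block, 2 fell and 1 rose in the disc, and 3 fell and 2 rose in S2. Those that passed without the block are named here, a choice made after their values were seen. The neighbour of CG31955, cutlet, which encodes a clamp loader protein of the Ctf18 type, fell in both cell types (-1.88 ± 0.19, adjusted p = 4.2e-05, and -0.68 ± 0.19, adjusted p = 0.0422; limma) and met the same thresholds as the 16. Its S2 call held in 3 of the 12 fits that each left out 1 array (adjusted p = 0.0332 to 0.122) and was lost without array 4 or 5 of either S2 fraction, any disc G1 array, or disc G2 array 2 or 4. Its disc call held in all 12. Leaving out an array of the other cell type alters the error and the adjusted p of a change, not the change itself. The other changes were those of CG10444 beside CG11788 (-0.47 ± 0.12 in the disc, adjusted p = 0.0253), and of CG3091 (-0.77 ± 0.16, adjusted p = 0.0103) and crn (0.31 ± 0.08, adjusted p = 0.0394) on the 2 sides of CG3191 in S2. The call of CG10444 was lost without disc G1 array 2 or 4 or disc G2 array 3 or 4 (adjusted p up to 0.0976), and that of crn held in 1 of 12 such fits, the one without disc G2 array 2 (0.0453 to 0.146 over the 12). Another gene overlaps 6 of the members in that annotation. These are CG10336 (with CG10383), CG10337 (with ref(2)P), CG11788 (with CG9143), CG14803 (with Pex5 and Pgam5), CG3085 (with Art7) and CG9752 (with RpL29). The table gives no strand, so signal from an overlapping gene was not told apart. The values of these 6 are uncertain to that extent. The overlapping genes had tested probe sets of their own, and none passed. Their changes ran from -0.16 (CG10383) to 0.20 (ref(2)P) in the disc and from -0.15 (ref(2)P) to 0.28 (Pex5) in S2.

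Markers of other cell types differed between the disc fractions beside the 16 genes. Of 7 tested genes of adult muscle precursors, which lie under the disc epithelium, 5 fell in disc G2 (median -1.32), with a summed log2 level of 71.6 to 74.4 in G1 and 63.4 to 67.3 in G2 over the 8 measured. Of 17 haemocyte genes 4 fell (median of the 17 -0.43), with sums of 118 to 124 and 110 to 115 over 18 genes. The 4 were Col4a1 (-1.62 ± 0.23), vkg (-1.62 ± 0.22), SPARC (-1.59 ± 0.12) and He (-0.98 ± 0.24). The other 13 did not pass, among them Hml (-0.49), Pxn (-0.59), NimC1 (0.28) and srp (0.12, with disc means under 5). Of 7 tracheal genes 3 rose (sums 53.7 to 55.3 and 57.3 to 59.9), and of 16 genes of the disc epithelium 5 rose, or 8 with replicate number as a block (128 to 131 and 135 to 137). Of 4 neural and glial genes 1 rose and 1 fell, and the 1 fat body gene tested fell. Over all probe sets 5.31% were lower and 5.20% higher in disc G2. The replicate block raised the probe sets called higher there from 446 to 987. In S2, 1 of the 7 muscle precursor genes rose (Ama, 0.36 ± 0.08, adjusted p = 0.0151) and 6 did not pass. There 2 of 4 neural and glial genes (moody and nrv2) and 1 of 16 disc epithelium genes (zfh2) rose. No tested tracheal or fat body gene passed in S2. Over all probe sets 3.52% were lower and 6.13% higher in S2 G2. None of the 17 haemocyte genes passed in S2 in the limma test, against 2 lower and 1 higher at an unadjusted p under 0.05, and 2 lower and 2 higher with replicate number as a block. The S2 sums were 44.6 to 45.4 in G1 and 44.4 to 45.4 in G2 for muscle precursors, and 153 to 154 and 152 to 153 for haemocytes. Of the 8 muscle precursor genes measured, 7 had a mean of at least 5 in disc G1 and 2 in S2 G1. Those 2 were Ama (12.14), an adhesion protein, and zfh1 (10.23), a transcription factor, while twi (3.86), htl (3.23), Him (4.19), Act87E (3.73) and hbs (3.44) were under 5. The part of these cells in the values of the 16 genes was not tested. As a check of the labels, 16 of 16 disc epithelium genes had a mean of at least 5 in disc G1 and 5 of 16 in S2 G1. Close to 5 in disc G1 were zfh2 (5.02) and rn (5.46). Against the labels, pnr and ap had higher means in S2 than in the disc in both phases. In G2, pnr was at 10.98 in S2 and 8.73 in the disc, and ap at 10.28 and 9.93. All other genes of this list were higher in the disc in both phases. Of 18 haemocyte genes, 14 reached 5 in S2 G1 and 12 in disc G1, so that list did not separate the cell types by presence alone. Among its members, srp was at 2.87 in disc G1 and 10.43 in S2 G1 and Hml at 5.85 and 11.14, whereas Ppn was at 10.88 and 4.90.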

How the data were processed

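The authors' deposited table holds 1 linear intensity per probe set and array, made with RMA in R 2.15.2 per the submitters' processing notes. The sources used here give no background method and no build. The design assumed log2 values, so log2 of the deposited intensity was taken first. Of 18769 probe sets that are not controls, 13646 had 1 gene symbol, 402 several and 4721 none listed in the platform annotation, and genes were named from the first kind. Names and neighbours came from the NCBI table of Release 6 plus ISO1 MT. The 12 arrays were fitted with limma 3.58.1 in R 4.3.3, with 1 coefficient per group, over the 8580 probe sets with log2 of at least 5 on at least 3 arrays, and p-values were adjusted by the Benjamini-Hochberg method over all of them. The threshold was an adjusted p under 0.05. The members and the gene lists were chosen with earlier results of these data known. Phase changes of members were not tested. Every member was named, with all array values. Named replication genes were the 3 lowest and 3 highest changes of each list and cell type. Same-numbered arrays of G1 and G2 deviated together (correlations of 0.31 to 0.52 in 6 pairs, -0.50 to 0.01 in 12 others). The main fit left this pairing out, so its calls and adjusted p-values ignore it. Among the alternatives, only the replicate block used it. The fit was tested on simulated data with independent noise per array, for the disc minus S2 contrast averaged over both phases. That test covered neither phase changes nor the shared deviation of same-numbered arrays. Alternatives were array-median scaling, loess, no filter, array weights, the replicate block, other thresholds, and each array left out.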

Additional observations from a re-analysis of the deposited data

Results flagged for a closer look

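None of the 16 genes enters here, since groups of 3 arrays are too small for a check of single arrays and the gap between their disc and S2 changes was part of their choice. Among the 16 named replication genes, the disc change differed from the S2 change in 12, all more negative in the disc (limma, disc change minus S2 change, log2). In the fork list these were Caf1-p105 (-1.41, adjusted p = 6.0e-04), Prim1 (-1.42, adjusted p = 0.0017), Ctf4 (-1.19, adjusted p = 0.0035), dnk (-1.12, adjusted p = 7.2e-04), RfC3 (-0.99, adjusted p = 0.0262) and Ts (-0.97, adjusted p = 0.0017). In the licensing list they were Orc1 (-2.15, adjusted p = 5.6e-04), Cdc6 (-1.83, adjusted p = 0.0018), dup (-1.81, adjusted p = 0.0017), Mcm10 (-1.45, adjusted p = 0.0019), dpa (-1.25, adjusted p = 0.0066) and Orc5 (-0.83, adjusted p = 0.0077). Cdc6 fell in disc G2 and rose in S2 G2. These genes were named for their extreme changes in the disc or in S2, which favours a gap between both. The values are therefore not a sample of the lists, and their adjusted p-values are no fair test. Over all probe sets, 5.10% had such a gap in either direction.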

How the results depend on the processing

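Of 48 disc to S2 comparisons of the 16 genes, 39 kept their side of the threshold under every alternative and 0 reversed. With array weights, 7 genes rather than 4 were higher in the disc within G2 (3 to 5 with each array left out). Probe sets with a phase change in the disc numbered 902, against 2043 with weights, 1626 with the replicate block and 601 to 1152 with an array left out (601 without disc G1 array 4). In S2 they numbered 828, against 1645, 1577 and 493 to 1088 (493 without S2 G1 array 4, 500 without S2 G2 array 6, 506 without array 5 and 545 without array 4). Licensing genes lower in S2 numbered 4, against 7 with weights and 1 to 6 with an array left out. Neighbours lower in the disc numbered 2, against 4 with weights and 1 to 2 with an array left out; in S2 2, against 1 with array medians, 1 with no filter, 4 with weights and 1 to 3. The set itself had 9 genes at a minimum level of 7, 28 at a change of -0.4, 14 with array medians, 22 with loess and 15 to 20 with an array left out. The cause of these shifts was not tested. Among the 48 comparisons the block changed 1 call, that of CG3191 within G2. Promoter motifs were not run, as no promoter sequence was used here. Values under log2 5 are near background and limit the disc changes of CG14545, CG31955 and CG4570. They may also limit that of CG32625, with a disc G2 mean of 5.10.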
